A study of Homo sapiens and Mus musculus with 14 samples.

Results

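Chromosomes 13 and 18 carried 1864 of the 39537 regions of open chromatin called in SMARCAL1 knockout clone 1, 1983 of 34572 in SMARCAL1 knockout clone 2 and 3279 of 64806 in control cells. The regions were taken by chromosome name alone, so every peak listed on chromosome 13 or chromosome 18 is included. Chromosome 13 had 1032 peaks in clone 1, 1024 in clone 2 and 1837 in control, and chromosome 18 had 832 in clone 1, 959 in clone 2 and 1442 in control. The description as gene-poor held in the gene table. Between the first and the last control peak, chromosome 13 had 3.42 protein-coding genes per Mb and chromosome 18 had 3.36, the 2 lowest of the 23 chromosomes compared, while the median was 5.89 and the highest value 24.1. That span leaves out the start of chromosome 13, where no list had a peak and the table places 2 genes.

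The data are ATAC-seq, in which a transposase inserts sequencing adapters into accessible DNA, from MDA-MB-436, an established human breast adenocarcinoma line. Clone 1 and clone 2 are SMARCAL1 knockout cells, and control cells carry the genotype Control in the labels; SMARCAL1 encodes an annealing helicase that acts at stalled replication forks. The authors merged the peaks of 3 clone 1 libraries of batch 1, 2 clone 2 libraries of batch 2 and 3 control libraries of batch 1 into 1 list a group. The series also holds 6 libraries of the mouse melanoma line B16F10, which were not analysed here. Each knockout is a single clone, so the knockout and other features of that clone cannot be told apart, and for clone 2 neither can the batch. A peak list does not check the knockout itself. With 1 merged list a group there is no replicate spread and no test: the 95% intervals are exact binomial ones, cover counting error only, and p-values are not given.

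Genes are unevenly spread over human chromosomes, and chromosomes 13 and 18 are known for few genes and for long gene deserts, stretches without protein-coding genes in which distal regulatory elements can still be accessible. Such chromosomes tend to lie toward the periphery of the nucleus and to replicate late over much of their length. Most accessible regions of a cell lie either at promoters, which are often rich in CpG dinucleotides, or at distal elements such as enhancers, which vary more between cell types.

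Gene starts that the comparison of the lists turned on are shown by their promoter windows, all from chromosome 13. Each window runs from 250 bases before to 50 bases after the annotated start, 5′ to 3′ on the strand of the gene, and comes from RefSeq (GRCh38.p14). Capitals mark CG dinucleotides. TEX30 (minus strand, chr13:102773737-102774036), GPC5 (plus strand, chr13:91398371-91398670) and DIAPH3 (minus strand, chr13:60163879-60164178) are shown as starts with a strong peak in all 3 lists. LATS2 (minus strand, chr13:21061537-21061836) had a peak in control and none in either clone. RCBTB1 (minus strand, chr13:49585509-49585808) and THSD1 (minus strand, chr13:52406123-52406422) had a peak in clone 2 and control and none in clone 1. LCP1 (minus strand, chr13:46182128-46182427) is shown as a start with no peak in any list.
TEX30: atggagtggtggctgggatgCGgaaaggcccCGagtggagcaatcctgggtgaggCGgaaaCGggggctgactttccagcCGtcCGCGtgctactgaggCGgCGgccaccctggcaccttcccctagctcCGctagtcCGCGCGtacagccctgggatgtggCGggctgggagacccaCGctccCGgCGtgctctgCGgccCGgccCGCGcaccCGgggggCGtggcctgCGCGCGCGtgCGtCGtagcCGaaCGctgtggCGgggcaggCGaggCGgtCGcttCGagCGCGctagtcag
GPC5: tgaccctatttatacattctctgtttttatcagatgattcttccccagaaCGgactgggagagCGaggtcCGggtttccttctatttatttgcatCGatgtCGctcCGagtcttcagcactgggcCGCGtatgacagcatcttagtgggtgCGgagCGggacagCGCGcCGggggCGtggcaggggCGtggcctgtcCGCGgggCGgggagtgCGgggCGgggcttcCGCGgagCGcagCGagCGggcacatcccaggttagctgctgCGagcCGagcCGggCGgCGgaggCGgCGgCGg
DIAPH3: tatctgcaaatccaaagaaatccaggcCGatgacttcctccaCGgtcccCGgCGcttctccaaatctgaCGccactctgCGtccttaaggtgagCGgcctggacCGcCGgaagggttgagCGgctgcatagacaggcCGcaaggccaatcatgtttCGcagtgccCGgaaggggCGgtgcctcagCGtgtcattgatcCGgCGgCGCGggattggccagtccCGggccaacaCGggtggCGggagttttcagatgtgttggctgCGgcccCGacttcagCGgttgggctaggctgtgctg
LATS2: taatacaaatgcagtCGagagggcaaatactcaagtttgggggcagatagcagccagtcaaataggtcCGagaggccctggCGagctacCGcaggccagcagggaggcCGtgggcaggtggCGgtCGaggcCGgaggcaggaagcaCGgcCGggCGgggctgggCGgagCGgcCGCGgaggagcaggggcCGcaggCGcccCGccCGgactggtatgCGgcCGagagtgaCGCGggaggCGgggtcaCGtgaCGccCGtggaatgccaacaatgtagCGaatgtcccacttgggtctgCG
RCBTB1: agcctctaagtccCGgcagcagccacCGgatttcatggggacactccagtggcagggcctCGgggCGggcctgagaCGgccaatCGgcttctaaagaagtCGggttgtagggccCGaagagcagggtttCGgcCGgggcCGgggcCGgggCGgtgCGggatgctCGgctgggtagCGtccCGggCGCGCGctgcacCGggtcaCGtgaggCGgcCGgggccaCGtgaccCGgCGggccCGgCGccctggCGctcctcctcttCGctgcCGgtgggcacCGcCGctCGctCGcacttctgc
THSD1: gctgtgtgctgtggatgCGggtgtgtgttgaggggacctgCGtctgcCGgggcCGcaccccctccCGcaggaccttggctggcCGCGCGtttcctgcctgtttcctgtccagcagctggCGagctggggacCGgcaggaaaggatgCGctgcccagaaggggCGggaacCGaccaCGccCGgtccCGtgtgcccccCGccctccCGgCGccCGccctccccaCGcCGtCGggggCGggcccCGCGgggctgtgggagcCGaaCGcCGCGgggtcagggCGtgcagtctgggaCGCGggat
LCP1: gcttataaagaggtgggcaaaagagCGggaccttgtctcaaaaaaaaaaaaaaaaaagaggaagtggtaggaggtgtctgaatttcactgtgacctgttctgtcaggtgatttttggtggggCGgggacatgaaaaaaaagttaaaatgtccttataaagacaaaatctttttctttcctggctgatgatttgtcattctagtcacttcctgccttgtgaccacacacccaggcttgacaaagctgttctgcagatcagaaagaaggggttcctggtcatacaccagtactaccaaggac

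CG dinucleotides numbered 38 in the TEX30 window, 33 in GPC5, 25 in DIAPH3, 29 in LATS2, 36 in RCBTB1, 33 in THSD1 and 2 in LCP1. Windows with a peak in all lists and windows with none in a clone both held many of them, and the window without any peak held few. The promoter table had an entry for 533 genes of chromosomes 13 and 18. Among these, the 244 promoters with a peak in all 3 lists held a median of 29.5 CG dinucleotides, the 23 with a control peak and none in either clone 29, and the 195 with no peak in any list 8. The 19 with a peak in control and clone 2 alone held a median of 34, and the 45 with a peak in control and clone 1 alone held 30. The letters TGANTCA, which read the same on both strands and are the core that AP-1 factors recognise, were found in 7 of the 244 promoters with a peak in all lists (2.87%), in 2 of the 23 with a control peak alone and in 21 of the 195 without a peak (10.8%). They occurred in 32 of all 533 promoters of chromosomes 13 and 18 (6.00%), against 5.69% of the 15279 promoters of the other chromosomes. These matches describe the letters in the window and are not binding sites. The classes go by the window alone, and 453 of the 533 starts lay within 10 bases of the gene's own 5′ end. RB1, with 0 CG dinucleotides, counted among the 195 without a peak, although its own 5′ end had a peak in all 3 lists. The part of such entries in the medians and shares was not tested.

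Chromosomes 13 and 18 took 4.71% of the clone 1 list, 5.74% of the clone 2 list and 5.06% of the control list. The peaks had a median width of 449 bp in clone 1, 201 bp in clone 2 and 381 bp in control. Over the span of the control peaks, their density in control was 18.7 peaks per Mb on chromosome 13 and 17.99 on chromosome 18, below the median of 19.98 over the 23 chromosomes. Score here means −log10 of the p-value that the authors' peak caller gave, so it rises with the strength of the signal but also with depth. The median score was 6.19 in clone 1, 11.2 in clone 2 and 6.32 in control, and scores are therefore compared within a list, not between lists. A peak is called a gene-end peak when it comes within 1000 bp of the start or the end of a protein-coding gene as annotated, and a desert peak lies over 500 kb from any such gene. Gene-end peaks were 12.5% of the control peaks on chromosome 13 and 13.7% on chromosome 18, against 19.3% on the other chromosomes. Desert peaks were 10.2% on chromosome 13 and 9.22% on chromosome 18, against 4.80% on the other chromosomes. Neither share was particular to these chromosomes. Desert peaks were 12.3% on chromosome 4 and 10.96% on chromosome 21, and chromosome 4 had the lowest gene-end share, 12.48%.

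The strongest control peak of chromosomes 13 and 18 lay in a desert. At chr13:103883050-103883606, 817 kb from SLC10A2, an intestinal bile acid transporter gene, the score was 29.2 in clone 1, 53.1 in clone 2 and 47.7 in control. This region also had the highest clone 2 score on the 2 chromosomes. The next strongest, chr13:87123974-87124936, lay 489 kb from its nearest annotated gene and scored 30.8 in clone 1, 46.2 in clone 2 and 39.8 in control. On chromosome 18 the strongest control peak was chr18:515048-515295, 14.3 kb from COLEC12, a collectin scavenger receptor gene, with 33.2 in clone 1, 24.96 in clone 2 and 36.0 in control. The strongest desert peak of chromosome 18, chr18:39946407-39947293, lay 2008 kb from PIK3C3, the class III phosphoinositide 3-kinase gene, and scored 11.5 in clone 1, 23.3 in clone 2 and 25.2 in control. All 5 strongest desert peaks of chromosome 13 and all 5 of chromosome 18 were present in all 3 lists. The widest control peak of each chromosome sat at a gene start. On chromosome 13 it was 2660 bp wide at FOXO1, a forkhead transcription factor gene, with 6.28 in clone 1, 11.1 in clone 2 and 7.71 in control. The one of chromosome 18 was 3153 bp wide at CDH2, the N-cadherin gene, with 7.05 in clone 1, 14.4 in clone 2 and 10.3 in control.

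The first question is which control peaks had no counterpart in a clone. On chromosomes 13 and 18, 1900 of 3279 control peaks had no overlapping peak in clone 1 (57.9%, 56.2 to 59.6), where 57.9% of all control peaks had none. In clone 2, 1708 were absent (52.1%, 50.4 to 53.8), against 57.1% of all control peaks. Both clones lacked 1434 (43.7%, 42.03 to 45.5), against 46.7% of all. The share absent in clone 1 was thus at the level of all control peaks, and the share absent in clone 2 was below it. Chromosome 13 lacked 59.6% of its control peaks in clone 1 (57.3 to 61.8) and 55.1% in clone 2 (52.8 to 57.4). Chromosome 18 lacked 55.9% in clone 1 (53.3 to 58.5) and 48.3% in clone 2 (45.7 to 50.9). The intervals of the clone 2 shares of the 2 chromosomes do not overlap.

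Absence followed the strength of the control peak, so each count was set against the number expected from the control score deciles of the same peaks. In the weakest decile, clone 1 shared 6.64% of control peaks on chromosome 13 and 8.77% on chromosome 18, and clone 2 shared 8.53% on chromosome 13 and 10.5% on chromosome 18. In the strongest decile, clone 1 shared 99.2% of 243 on chromosome 13 and 99.4% of 154 on chromosome 18, and clone 2 shared 99.2% on chromosome 13 and all 154 on chromosome 18. Chromosome 18 stood above the other chromosomes in all 10 deciles in clone 2 and in 6 of 10 in clone 1. Chromosome 13 stood above them in 6 of 10 deciles in clone 2 and in 3 of 10 in clone 1. In the seventh decile, clone 2 peaks covered 66.0% of chromosome 18 control peaks (57.5 to 73.7) and 50.3% of chromosome 13 control peaks (42.4 to 58.2), against 54.4% on the other chromosomes.

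**Figure D1:**
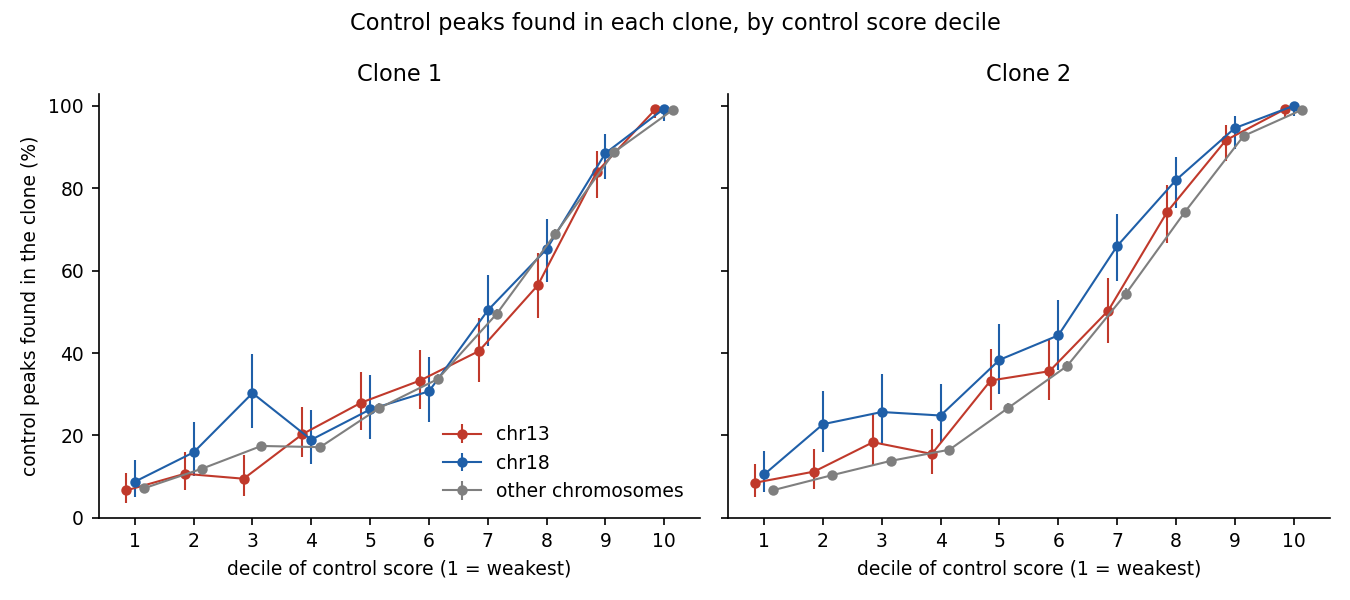
Share of control peaks found in clone 1 (left) and clone 2 (right), in percent, by decile of the control score from weakest to strongest, for chromosome 13, chromosome 18 and the other chromosomes. Bars are exact binomial 95% intervals; in clone 2 the chromosome 18 points lie above those of the other chromosomes in all 10 deciles.

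Given their scores, control peaks of chromosome 13 were found in clone 1 at the low end of the 23 chromosomes, next to chromosome 3, and those of chromosome 18 were found in clone 2 at the high end, next to the X chromosome. On chromosome 13, 743 control peaks were found in clone 1 where 798 were expected, a ratio of 0.931 (0.879 to 0.984), and 825 in clone 2 where 810 were expected, a ratio of 1.02 (0.966 to 1.07). On chromosome 18, 636 were found in clone 1 where 623 were expected, a ratio of 1.02 (0.961 to 1.08), and 746 in clone 2 where 636 were expected, a ratio of 1.17 (1.11 to 1.23). Over the 23 chromosomes the ratio ran from 0.931 to 1.17 in clone 1 and from 0.626 to 1.21 in clone 2. Chromosome 3 measured 0.932 in clone 1 (0.897 to 0.967), not distinguishable from chromosome 13, and the X chromosome had the highest clone 2 ratio, 1.21. Both gene-poor chromosomes therefore had a higher ratio in clone 2 than in clone 1. This was not particular to them. Chromosome 3, the X chromosome and several others also had a higher ratio in clone 2 than in clone 1, while the remaining chromosomes had a lower ratio in clone 2. Width, gene number of the surrounding window or gene-end position were each entered in the expectation as alternatives. The chromosome 18 ratio in clone 2 was then between 1.13 and 1.18, and the chromosome 13 ratio in clone 1 between 0.938 and 0.961. These chromosome 13 values lie closer to 1 than 0.931 does. No intervals were computed for the alternatives, so whether they leave out 1 is not known.

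**Figure D2:**
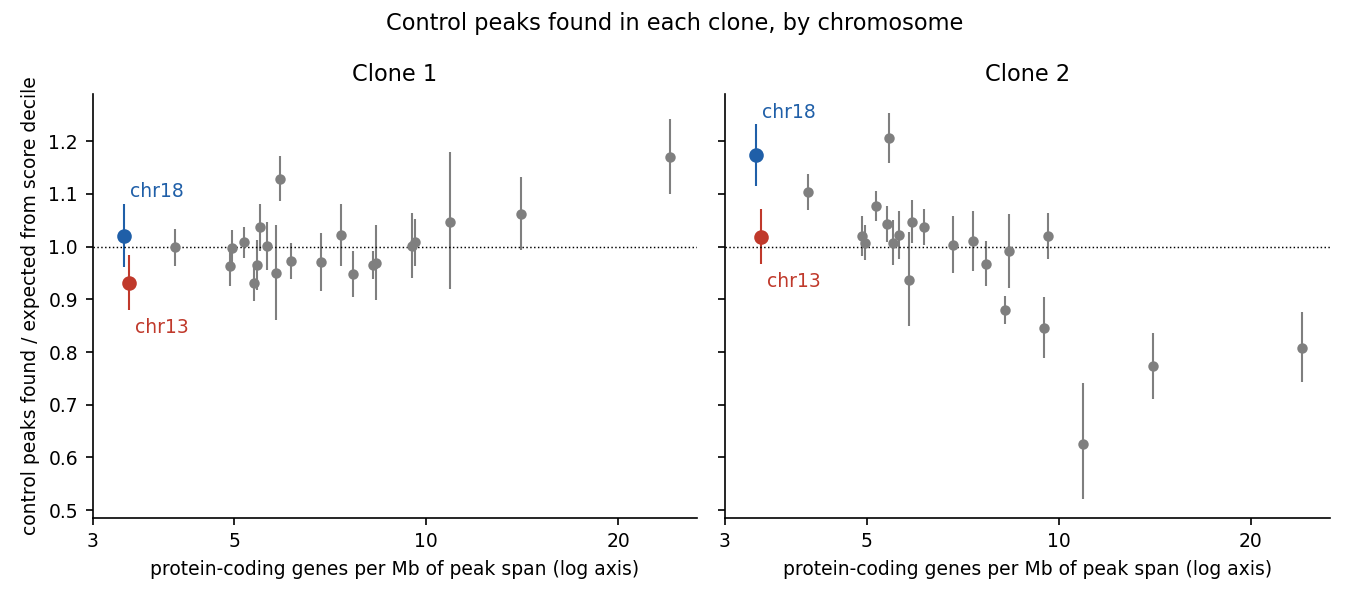
Number of control peaks found in clone 1 (left) or clone 2 (right) divided by the number expected from control score deciles, against protein-coding genes per Mb of the span from first to last control peak, on a log axis, 1 point a chromosome. Bars are 95% intervals of counting error; chromosome 13 lies at 0.931 in clone 1, beside chromosome 3 at 0.932, and chromosome 18 is second highest in clone 2 at 1.17.

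Along the chromosomes, the clone 2 ratio covered a wider range than the clone 1 ratio. Of the 5 Mb windows, 30 held 40 or more control peaks, 15 on each chromosome. In clone 1 the ratio ran from 0.783 to 1.17, and no window had an interval that left out 1. In clone 2 it ran from 0.623 to 1.43, with 6 windows whose interval lay above 1 and 2 whose interval lay below 1. On chromosome 18 the clone 2 ratio was above 1 in 14 of 15 windows, and on chromosome 13 in 9 of 15, against 54.6% of 526 windows of the other chromosomes. The clone 2 ratio exceeded the clone 1 ratio in 26 of the 30 windows, and in 297 of the 526 others. Both clones are set against the same control peaks, so the 2 ratios of a window share them.

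On chromosome 13 the highest clone 2 windows lay side by side in the middle of the long arm. The window at 70 to 75 Mb measured 1.35 in clone 2 (1.05 to 1.62, 7 genes) and 1.104 in clone 1, and that at 75 to 80 Mb measured 1.31 in clone 2 (1.104 to 1.48, 18 genes) and 1.00 in clone 1. The window at 60 to 65 Mb measured 1.30 in clone 2 (0.951 to 1.62, 4 genes) and 0.939 in clone 1, while 65 to 70 Mb held too few control peaks. From 110 to 115 Mb, the gene-rich end of the long arm with 40 genes, the clone 2 ratio was 0.623 (0.438 to 0.842), while clone 1 measured 0.941 (0.720 to 1.18). The other clone 2 window below 1 was 95 to 100 Mb, at 0.812 (0.651 to 0.987). In clone 1 the lowest window was 85 to 90 Mb, at 0.783 (0.549 to 1.05), with 4 genes. The gene with the most control peaks in the 70 to 75 Mb window was KLF12, a Krüppel-like repressor gene, where clone 1 peaks covered 3 of 7 control peaks and clone 2 peaks 5 of 7. In the 110 to 115 Mb window it was RASA3, a Ras GTPase-activating protein gene, where clone 1 peaks covered 4 of 12 and clone 2 peaks 2 of 12.

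Of the chromosome 18 windows, the highest in clone 2 was 20 to 25 Mb, at 1.43 (1.08 to 1.76, 21 genes), where LAMA3, a laminin chain gene of epithelial basement membranes, had the most control peaks. Clone 1 peaks and clone 2 peaks each covered 3 of the 7 control peaks of LAMA3. The other 3 with an interval above 1 were 0 to 5 Mb (22 genes), with 1.38 (1.08 to 1.68) in clone 2 and 1.08 in clone 1, 65 to 70 Mb (7 genes), with 1.34 (1.06 to 1.60) in clone 2 and 1.12 in clone 1, and 70 to 75 Mb (12 genes), with 1.38 (1.15 to 1.59) in clone 2 and 1.01 in clone 1. The window below 1 in clone 2 was 45 to 50 Mb, at 0.911 (0.688 to 1.15), with 27 genes. There CTIF, a translation initiation factor gene, had 12 control peaks, of which clone 1 peaks covered 3 and clone 2 peaks 2. The lowest clone 1 window of chromosome 18, 40 to 45 Mb, measured 0.808 (0.570 to 1.07) in clone 1 and 1.23 (0.974 to 1.47) in clone 2. SETBP1, a gene for a SET-binding nuclear protein, had 12 control peaks there, of which each clone covered 5.

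**Figure D3:**
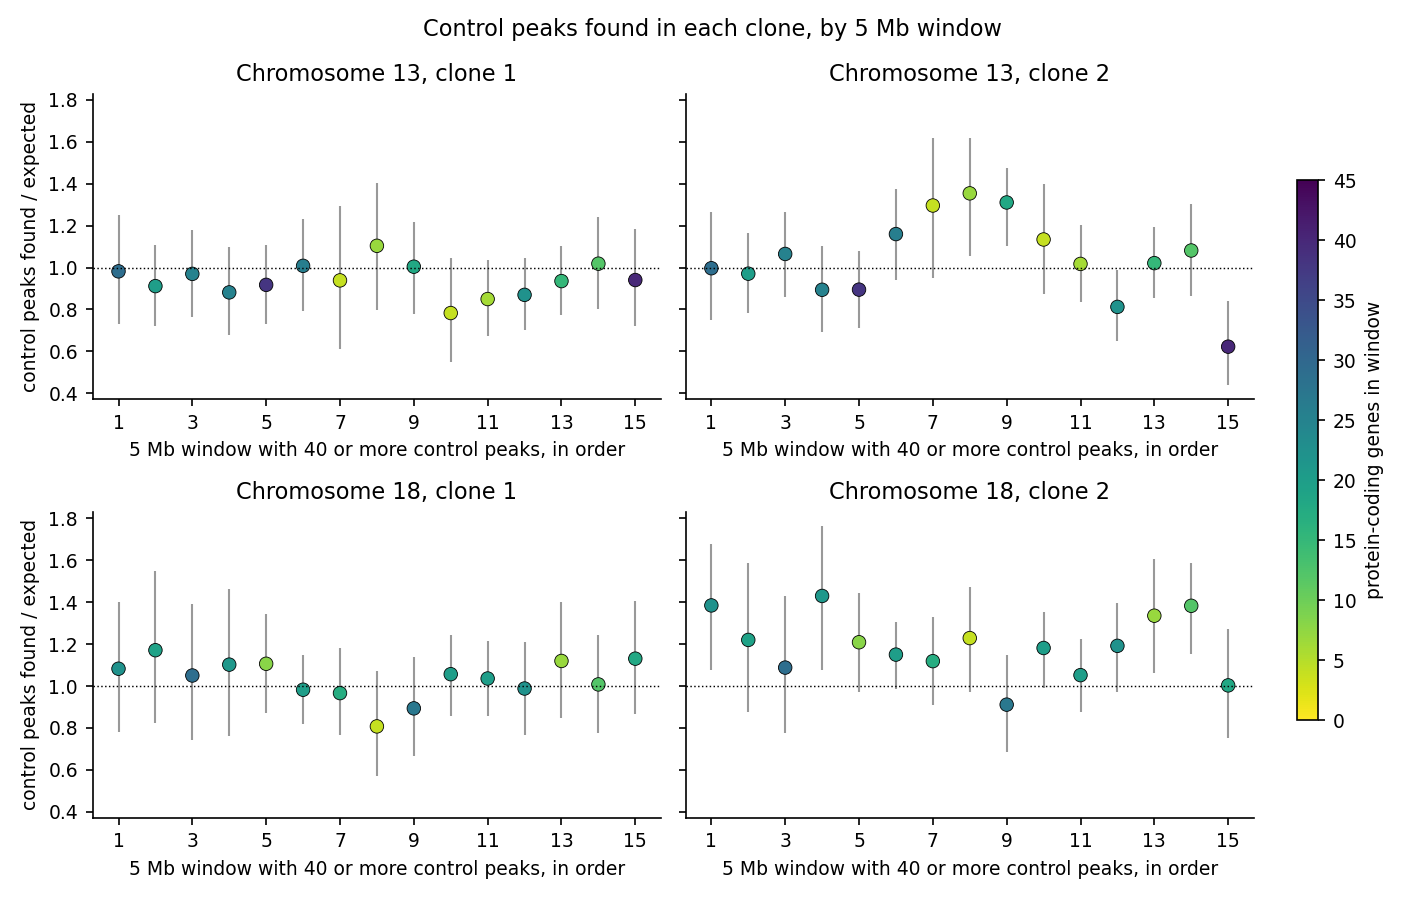
Control peaks found divided by the number expected from score deciles in 5 Mb windows of chromosome 13 (top) and chromosome 18 (bottom), for clone 1 (left) and clone 2 (right), in order from the start of the chromosome and coloured by the number of protein-coding genes. Bars are 95% intervals of counting error; the clone 2 values span 0.623 to 1.35 on chromosome 13 and 0.911 to 1.43 on chromosome 18.

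Across the 30 windows, Spearman's rho between the ratio and the number of genes was -0.49 in clone 2 and -0.02 in clone 1, and across the 526 windows of the other chromosomes it was -0.56 in clone 2 and 0.21 in clone 1. These are descriptions over windows of the same lists, which share library and depth. Pooled by gene number, control peaks of chromosome 13 had a clone 2 ratio of 1.16 (1.05 to 1.26) in windows with 0 to 9 genes, 1.103 (0.989 to 1.22) with 10 to 19 and 0.926 (0.856 to 0.997) with 20 or more. On chromosome 18 the same classes gave 1.27 (1.12 to 1.41), 1.17 (1.05 to 1.30) and 1.14 (1.07 to 1.22), and on the other chromosomes 1.14, 1.11 and 0.945. Chromosome 13 thus lay near the other chromosomes at each gene number, and chromosome 18 lay above them with 20 or more genes, where the intervals do not overlap. In clone 1 the classes of chromosome 13 gave 0.893, 0.974 and 0.931, and those of chromosome 18 gave 1.01, 1.05 and 1.01.

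By place relative to genes, the highest ratio was at gene ends in clone 1 and in deserts in clone 2, and in both clones gene ends lay above gene bodies. At gene ends the clone 1 ratio was 1.17 (1.08 to 1.24) on chromosome 13 and 1.23 (1.13 to 1.31) on chromosome 18, against 1.18 on the other chromosomes. In gene bodies of chromosome 13 it was 0.845 (0.753 to 0.941), against 0.914 on the other chromosomes. In deserts the clone 2 ratio was 1.19 (1.00 to 1.38) on chromosome 13 and 1.41 (1.16 to 1.67) on chromosome 18, against 1.11 (1.07 to 1.16) on the other chromosomes. Clone 1 in deserts measured 0.822 (0.650 to 1.01) on chromosome 13 and 0.944 (0.715 to 1.20) on chromosome 18. Desert control peaks had a median width of 325 bp on chromosome 13 and 313 bp on chromosome 18, while gene-end control peaks had medians of 988.5 bp and 1029.5 bp, and wide peaks are more easily overlapped. The part of width in these differences was not tested.

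**Figure D4:**
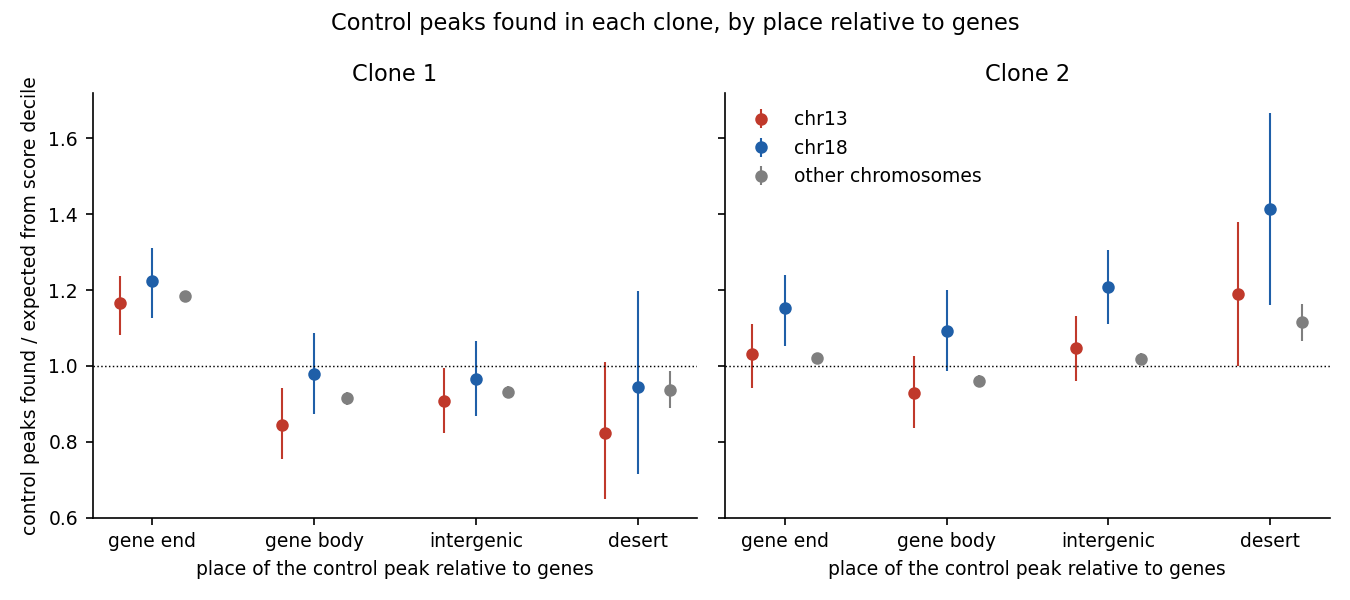
Control peaks found divided by the number expected from score deciles, for clone 1 (left) and clone 2 (right), by place relative to protein-coding genes, on chromosome 13, chromosome 18 and the other chromosomes. Bars are 95% intervals of counting error; the highest clone 2 value is 1.41 in the deserts of chromosome 18.

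By gene, 417 of the 608 protein-coding genes on chromosomes 13 and 18 had a control gene-end peak, and 326 of these (78.2%) had one in all 3 lists. Genes with a control gene-end peak and none in clone 1 numbered 55 (13.2%, 10.1 to 16.8), against 21.1% of all such genes. Those with none in clone 2 numbered 70 (16.8%, 13.3 to 20.7), against 30.1% of all, and those with none in either clone 34 (8.15%, 5.71 to 11.2), against 15.9% of all. The control gene-end peaks of chromosomes 13 and 18 were also stronger, with a median score of 10.8 against 9.15 over all genes. Given the score decile, 362 genes were found in clone 1 where 352 were expected, a ratio of 1.03 (0.985 to 1.07). In clone 2, 347 were found where 322 were expected, a ratio of 1.08 (1.03 to 1.12). By chromosome the clone 2 ratio was 1.05 (0.985 to 1.11) on chromosome 13, where the interval holds 1, and 1.11 (1.03 to 1.18) on chromosome 18. The genes with none in either clone had weak control peaks, with a median score of 5.90, while those in all 3 lists had a median of 12.8. Over all genes the same medians were 5.87 and 11.8.

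The strongest control gene-end peaks with a counterpart in both clones were as follows. At TEX30, whose promoter is printed above, the score was 16.3 in clone 1, 29.1 in clone 2 and 36.5 in control. At GPC5, a glypican gene of 1469 kb, it was 12.1 in clone 1, 22.01 in clone 2 and 32.6 in control. DIAPH3, a formin that nucleates actin filaments, had 14.4 in clone 1, 27.3 in clone 2 and 31.0 in control. On chromosome 18, ZNF397, a zinc finger gene, had 18.1 in clone 1, 36.4 in clone 2 and 34.3 in control. RNF125 and RNF138, neighbouring E3 ubiquitin ligase genes, share a peak at the 3′ end of RNF125 and the 5′ end of RNF138, which scored 14.9 in clone 1, 32.7 in clone 2 and 32.9 in control.

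The strongest control gene-end peak of chromosome 13 with none in either clone was 10.8 at chr13:46126631-46126983, at the 3′ end of LCP1, the leukocyte actin bundler L-plastin. Its promoter, printed above, had no peak in any list, so the missing peak was not at its start. PDX1, a pancreatic transcription factor gene, had 8.54 in control, and LATS2, a Hippo pathway kinase gene, had 8.35. The LATS2 peak, chr13:21061367-21061730, lay over the printed window, and neither clone had a peak there. SAP18, a subunit gene of Sin3 corepressor complexes, had 6.66, and LMO7, an adaptor gene of cell junctions, had 6.63. On chromosome 18 the rule took C18orf63 at 12.3, but its control peak reached beyond 1000 bp from the gene end, and clone 1 and clone 2 peaks overlapped it there with 5.27 and 18.5. A clone 2 peak of 10.4 likewise overlapped the control peak of LOC124904304 (10.9), and clone 1 had none. ANKRD29, an ankyrin repeat gene, had 7.47 in control, ST8SIA5, a sialyltransferase gene, had 6.65 and RAB12, a small GTPase gene, had 6.63, and none of these 3 control peaks was overlapped in a clone.

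Several genes differed between the clones. RCBTB1, a BTB domain gene whose promoter is printed above, had 9.54 in clone 2 and 11.01 in control, and THSD1, a thrombospondin-domain gene of endothelium, had 11.1 in clone 2 and 7.84 in control. MICU2, a subunit gene of the mitochondrial calcium uniporter, had 10.3 in clone 2 and 7.81 in control. The netrin receptor gene DCC on chromosome 18 had 15.1 in clone 2 and 7.77 in control. The clone 2 value of DCC lies at its 3′ end, at chr18:53534729-53534940 where control had no peak, and at its start clone 2 had 11.05. MOCOS, a molybdenum cofactor sulfurase gene, had 7.63 in clone 2 and 7.73 in control, and ABHD3, a phospholipase gene, had 11.2 in clone 2 and 7.57 in control. These 6 genes had no gene-end peak in clone 1, with control scores from 7.57 to 11.01.

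In the other direction, LPIN2, a phosphatidate phosphatase gene, had 5.31 in clone 1 and 9.82 in control, and IER3IP1, a gene of secretory traffic, had 5.65 in clone 1 and 8.24 in control, and no clone 2 peak overlapped either control peak. For 4 more genes that the rule took, a clone 2 peak overlapped the control peak although none came within 1000 bp of a gene end. RNF6, an E3 ubiquitin ligase gene, had 6.49 in clone 1 and 16.4 in control, and a clone 2 peak of 11.9 overlapped its control peak beyond 1000 bp. FGF14, a fibroblast growth factor homologous factor gene, had 6.24 in clone 1 and 11.2 in control, with a clone 2 peak of 12.3 over its control peak. TSHZ1, a zinc finger homeobox gene, had 6.75 in clone 1 and 9.95 in control, with 9.27 in clone 2, and LOC112268119 had 7.20 in clone 1 and 11.2 in control, with 13.7 in clone 2. Counting any clone peak that overlaps the control peak, 63 genes in place of 70 had none in clone 2, and 53 in place of 55 had none in clone 1.

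The reverse pattern, a peak at a gene end in each clone but not in control, was found for 3 of the 191 genes that lacked one in control (1.57%, 0.325 to 4.52), against 0.564% of all such genes. Among them were EEF1AKMT1, a lysine methyltransferase gene of elongation factor 1A, with 5.27 in clone 1 and 9.15 in clone 2, and B4GALT6, a lactosylceramide synthase gene, with 7.13 in clone 1 and 7.73 in clone 2. Another 7 of the 191 had one in clone 1 alone (3.66%), against 5.37% of all such genes, and 2 had one in clone 2 alone (1.05%), against 0.986%. These counts are too small to set apart from the shares over all genes, which lie inside their intervals. No list had a peak at the ends of the remaining 179, which are 29.4% of the 608 genes, against 36.4% of all genes.

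Gene lists were read against all 417 genes of the 2 chromosomes that had one in control, of which 78.2% had one in all 3 lists. Of 16 genome maintenance genes, 14 had a control gene-end peak and all 14 had one in both clones, among them ERCC5, an excision repair nuclease gene (22.04 in clone 1, 31.8 in clone 2, 29.2 in control), BRCA2 (8.08 in clone 1, 14.4 in clone 2, 10.6 in control) and RNASEH2B, a ribonuclease H2 subunit gene (12.3 in clone 1, 10.7 in clone 2, 14.7 in control). The 18 cell division genes all had a control peak, and 17 had a gene-end peak in all 3 lists. In NDC80, a kinetochore gene, no clone 1 peak overlapped the control peak itself, and in MAPRE2, a microtubule end-binding gene, no clone 2 peak did. RB1, the pocket protein gene, had 7.86 in clone 1, 11.5 in clone 2 and 15.9 in control, and LATS2 had none in either clone. Of 24 housekeeping genes 22 were in all 3 lists. MYL12B, a myosin light chain gene, had 10.3 in clone 2, none in clone 1 and 7.22 in control, and GTF2F2, a TFIIF subunit gene, had 7.72 in clone 1, none in clone 2 and 8.87 in control. The median control score was 14.8 in the genome maintenance list, 11.5 in cell division and 11.96 in housekeeping, against 10.8 over the 417 genes.

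In the TGF-beta and SMAD list 6 of 7 genes with a control peak were in all 3 lists. SMAD4 had 8.82 in clone 1, 10.0 in clone 2 and 9.54 in control, and SMAD7, the inhibitory SMAD gene, had 5.10 in clone 1, none in clone 2 and 5.52 in control. Of 21 cancer genes 15 of 19 with a control peak were in all 3 lists. At its 3′ end GAS6, the ligand gene of the AXL receptor family, had 8.29 in clone 2, none in clone 1 and 5.31 in control. DCC also had none in clone 1, and LATS2 and LMO7 had none in either clone. Of 20 innate immune and inflammation genes, 9 of 10 with a control peak were in all 3 lists. HMGB1, a nuclear alarmin gene, had 9.23 in clone 1, 12.8 in clone 2 and 22.1 in control. SETDB2, a SET domain methyltransferase gene, had 14.3 in clone 1, 27.5 in clone 2 and 29.2 in control, and SOCS6, a cytokine signalling suppressor gene, had 6.67 in clone 1, none in clone 2 and 8.17 in control. ALOX5AP, the 5-lipoxygenase activating protein gene, had 5.14 in clone 1 alone, and 9 of the 20 had no peak in any list.

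Of 11 cadherin and desmosome genes on chromosome 18, CDH2, CDH20, DSC2, DSC3 and DSG2 had a gene-end peak in all 3 lists and the other 6 had none in any list. The desmosomal DSC2 had 8.15 in clone 1, 17.6 in clone 2 and 17.0 in control, and its partner DSG2 had 8.39 in clone 1, 17.2 in clone 2 and 15.4 in control. Of 10 clade B serpin genes only SERPINB8 and SERPINB10 had a gene-end peak, each in all 3 lists. SERPINB8 had 11.7 in clone 1, 21.0 in clone 2 and 24.1 in control. Of 7 protocadherin and SLITRK genes on chromosome 13, 4 were in all 3 lists, and PCDH8, a protocadherin gene, had 5.25 in control and none in either clone. SLITRK5, a synaptic adhesion gene, had 14.5 in clone 1, 18.4 in clone 2 and 18.8 in control.

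In the matrix and basement membrane list, 4 of 6 genes with a control peak were in all 3 lists, namely LAMA1, LAMA3, FREM2 and CCBE1. That list was not limited to matrix proteins. It also took the scavenger receptor gene COLEC12 (5.51 in control) and LOXHD1 (5.74 in control), which had none in either clone. FREM2, a basement membrane gene, had 9.78 in clone 1, 19.995 in clone 2 and 18.3 in control. Transcription factor genes had 13 of 19 in all 3 lists. PDX1, SOX1 and NFATC1 had none in either clone, with 8.54, 5.57 and 5.90 in control. ZIC5, GSX1 and TSHZ1 had no gene-end peak in clone 2, but a clone 2 peak of 9.27 overlapped the control peak of TSHZ1. ZIC5 scored 8.83 in clone 1 and 7.41 in control. MBD2, a methyl-CpG binding protein gene, had 15.4 in clone 1, 33.2 in clone 2 and 19.8 in control. Of 22 genes in the long neuronal list, 15 of 18 with a control peak were in all 3 lists. That list was not limited to long genes, and it also took SYT4, of 9.60 kb. NETO1, a glutamate receptor auxiliary subunit gene, had 8.25 in clone 2 at its 3′ end, none in clone 1 and 5.81 in control. DOCK9, a guanine nucleotide exchange factor gene, had 7.46 in clone 1, 23.01 in clone 2 and 15.3 in control.

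Of 13 markers of cells not cultured here, 3 had a gene-end peak in clone 1, 2 in clone 2 and 5 in control, with summed scores of 22.9, 30.5 and 54.5. DCT, a melanocyte gene, and FLT3, a leukocyte receptor gene, were in all 3 lists, LCP1, PDX1 and F7 were in control alone, and FLT1 was in clone 1 alone. The other 7, among them EDNRB, KL, CD226, TTR, F10 and MBP, had no gene-end peak in any list. EDNRB had a peak over an annotated start inside the gene, with 6.46 in clone 1, none in clone 2 and 6.14 in control. A gene-end peak does not give the expression of a gene, and the part of these markers in the differences was not tested.

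By gene body, the rule took genes by the number of control peaks that neither clone had. It favours genes with many control peaks and genes with few of them found. The shares of these genes are read against the 46.7% of all control peaks, and counts below expectation follow partly from the rule. HS6ST3, a heparan sulfate 6-O-sulfotransferase gene of chromosome 13, had 24 of its 27 control peaks absent in both clones (88.9%), counting 10 kb on each side. Clone 1 peaks covered 2 where 5.89 were expected from score, and clone 2 peaks covered 3 where 5.53 were expected, while the peak at its start was in all 3 lists (8.14 in clone 1, 15.2 in clone 2, 14.1 in control). The glypican gene GPC6 had 17 of 39 control peaks absent in both clones (43.6%), with 17 found in clone 1 where 19.1 were expected and 20 in clone 2 where 19.1 were expected. FGF14 had 15 of 33 absent (45.5%) and GPC5 14 of 28 (50%), so these 3 genes were near the share of all control peaks. UGGT2, a glycoprotein quality control gene next to HS6ST3, had 11 of 16 absent (68.8%), with 5 found in clone 1 and 3 in clone 2 where 6.58 and 6.65 were expected. On chromosome 18, FHOD3, a formin gene, had 11 of 22 absent in both clones (50%), with 5 found in clone 1 and 10 in clone 2 where 8.57 and 8.65 were expected. NEDD4L, a ubiquitin ligase gene, had 10 of 22 (45.5%), ALPK2, an alpha kinase gene, 8 of 10 (80%), CTIF 8 of 12 (66.7%) and DTNA, the alpha-dystrobrevin gene, 8 of 19 (42.1%). HS6ST3 and UGGT2 lie in the 95 to 100 Mb window that was low in clone 2, and their absent peaks are among those counted there.

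Strong regions were seldom absent. In the upper 2 score deciles, 7 of 725 control peaks of chromosomes 13 and 18 were absent in both clones (0.966%), against 1.37% of all. Clone 1 lacked 49 of the 725 (6.76%, 5.04 to 8.84), against 6.08% of all, and clone 2 lacked 25 (3.45%, 2.24 to 5.05), against 4.54% of all, both within counting error. The strongest absent in both was chr13:109489069-109489369, 263 kb from the insulin receptor substrate gene IRS2, with 13.8 in control. The strongest on chromosome 18 was chr18:75896938-75897148, with 10.2 in control. The strongest control peak absent in clone 1 alone was chr18:60232520-60232958, 138 kb from the melanocortin receptor gene MC4R, with 20.6 in clone 2 and 14.3 in control. The strongest absent in clone 2 alone was chr13:57139351-57139844, 1.07 kb from PRR20A, with 17.7 in clone 1 and 19.2 in control; PRR20A belongs to a family of near-identical copies, so reads there may be placed uncertainly. The gene body of CDH2 (chr18:27942452-27943090) held a peak that clone 1 lacked, with 10.7 in clone 2 and 11.7 in control. So did the gene body of the myosin gene MYO5B (chr18:49849597-49850304), with 10.8 in clone 2 and 11.9 in control.

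New regions differed between the clones and between the chromosomes. Of the clone 1 peaks on chromosomes 13 and 18, 477 of 1864 had no overlapping control peak (25.6%, 23.6 to 27.6), against 30.7% of all clone 1 peaks. Of the clone 2 peaks, 243 of 1983 had none (12.3%, 10.8 to 13.8), against 11.1% of all clone 2 peaks. Set against the deciles of their own score, clone 1 had 0.884 times the expected number (0.816 to 0.954) and clone 2 had 1.15 times (1.01 to 1.29). For chromosome 18 these were 0.809 (0.709 to 0.915) in clone 1 and 1.33 (1.13 to 1.55) in clone 2, and on chromosome 13 they were 0.942 (0.850 to 1.04) and 0.973 (0.804 to 1.16). The strongest new clone 2 peaks were chr13:69474406-69474560, 226 kb from the neuronal gene KLHL1, with 20.3, and chr18:44341958-44342153, 338 kb from SETBP1, with 18.9. The strongest new clone 1 peak was chr13:104522053-104522676, a desert region 943 kb from DAOA, with 9.70.

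New in both clones were 31 of the 477 new clone 1 peaks (6.50%, 4.46 to 9.10), against 4.83% of all new clone 1 peaks, and 32 of the 243 new clone 2 peaks (13.2%, 9.18 to 18.1), against 15.6% of all new clone 2 peaks. Both shares over all lie inside the intervals. By clone 1 peak, 14 lay on chromosome 13 and 17 on chromosome 18; 2 were gene-end peaks, 11 lay in gene bodies and 18 outside genes. First by score rank came chr18:64134290-64134716, 115 kb from SERPINB8, with 7.78 in clone 1 and 13.7 in clone 2. Next was chr18:64929124-64929336, in the desert by CDH7, a type II cadherin gene, with 6.91 in clone 1 and 15.5 in clone 2. On chromosome 13 the first was chr13:73341823-73342177, an intergenic region nearest to KLF5, an epithelial Krüppel-like factor gene, with 6.07 in clone 1 and 11.4 in clone 2.

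New clone 1 peaks of chromosome 13 were most frequent in one stretch, whose bounds were set after its values were seen. Between 99 and 107 Mb, 115 of 252 clone 1 peaks had no control peak (45.6%), 1.39 times the 82.9 expected from their scores (1.196 to 1.58). In clone 2, 10 of 164 peaks there had none (6.10%). Over the remainder of chromosome 13 the clone 1 ratio was 0.775 (0.675 to 0.883). Taking out the stretch with most new peaks lowers that ratio, so both intervals depend on the choice of bounds. The whole of chromosome 13 measured 0.942 (0.850 to 1.04). Clone 1 had 31.5 peaks per Mb in the stretch, against 14.6 in the 8 Mb before it and 9.00 in the 8 Mb after it, clone 2 had 20.5, against 15.6 and 7.50, and control had 40.6, against 32.6 and 21.5. The 5 Mb window from 100 to 105 Mb held 82 new clone 1 peaks, the second highest number of 556 windows, and was 11th by the number over that expected from score. It also held 211 control peaks, the 17th highest number. The new peaks were weak, with a median score of 5.45, as were all new clone 1 peaks, with 5.46. Of the 115, 4 were also in clone 2, where 4.83% of all new clone 1 peaks were also new in clone 2. By place, 41 of the 115 lay in gene bodies, 43 were intergenic, 31 lay in deserts and 0 were at gene ends. The shares by place over all new clone 1 peaks are not given here, so these counts are not read as a trait of the stretch. FGF14 and NALCN, a sodium leak channel gene, held 7 each, CLYBL, a citramalyl-CoA lyase gene, 6, and PCCA, a propionyl-CoA carboxylase subunit gene, 5. Control peaks of the stretch were found in clone 1 at 0.993 times expectation (0.866 to 1.12), and without the stretch chromosome 13 measured 0.918 (0.861 to 0.976) in clone 1 and 1.02 (0.966 to 1.08) in clone 2. DNA copy number was not measured here, and its part in the peak density was not tested.

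**Figure D5:**
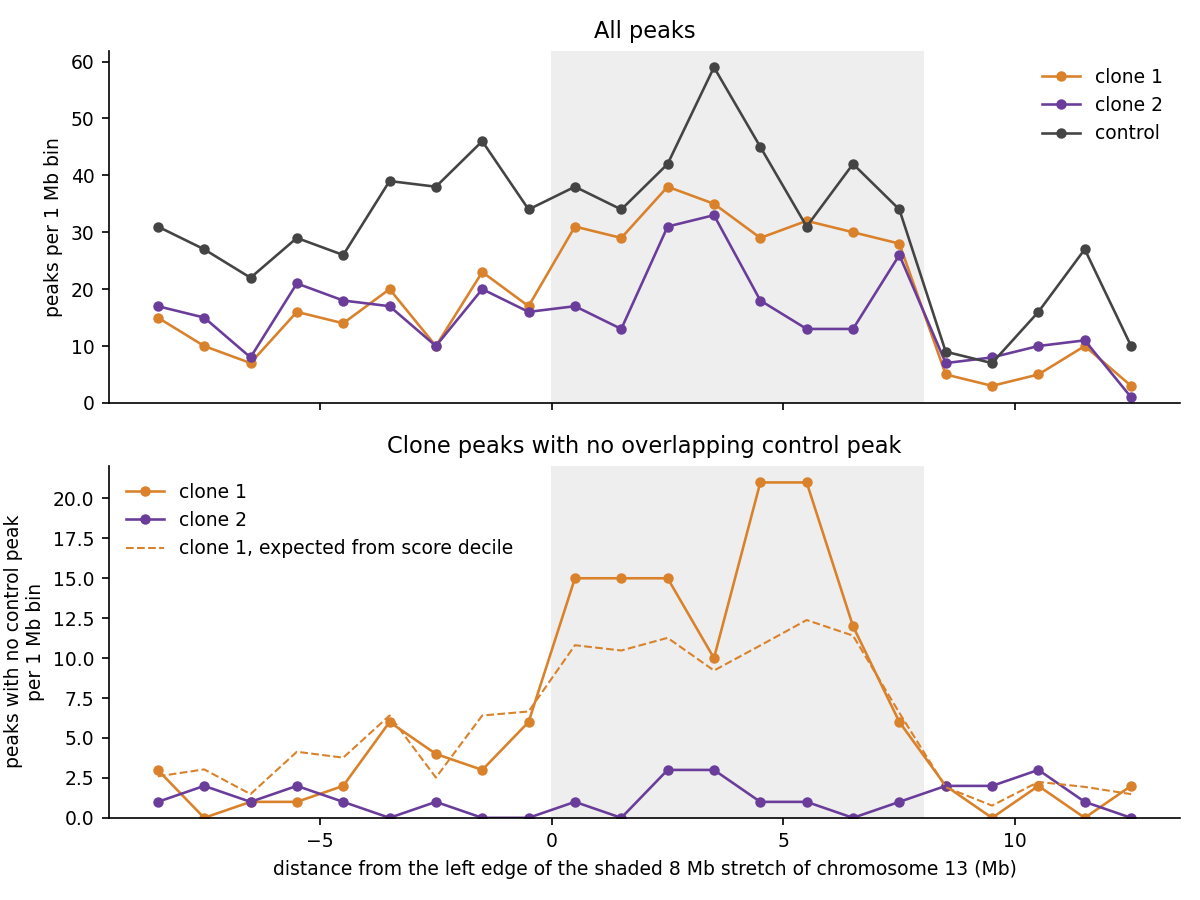
Peaks per 1 Mb bin in clone 1, clone 2 and control (top), and clone peaks with no overlapping control peak (bottom), along chromosome 13 by distance from the left edge of the shaded 8 Mb stretch. The dashed line is the number expected in clone 1 from score deciles; the shaded bins hold 115 such clone 1 peaks, against 82.9 expected, and 10 such clone 2 peaks.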

How the data were processed

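ATAC-seq peak lists of 3 MDA-MB-436 groups were used, in which the authors had merged the replicate peaks, per the labels. HISAT2, MACS2 and ChIPseeker with build hg38 are named in the submitters' processing notes; the sources used here give no versions, settings or read depths. Each deposited line holds a chromosome, start, end and score. The deposited score is read as the −log10 p-value of the authors' peak caller, since its most frequent values match Poisson tails at successive whole pileups within 0.0001. Some control scores have more than 5 decimals, which no label explains. Columns with per-sample values that were not used numbered 0.

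Coordinates are printed counted from 1. Genes and promoters came from RefSeq (GRCh38.p14): 19974 protein-coding genes, 608 of them on chromosomes 13 and 18, of which 533 had a promoter entry, 453 of these within 10 bases of the gene's own 5′ end; of several entries the one nearest that end was taken. A gene end means either annotated end, so 3′ ends are included. A peak counted as found when at least 1 bp overlapped. Expected numbers came from the found share of each of 10 control score deciles over all control peaks, and for new clone peaks from the deciles of their own score. Only 5 Mb windows holding 40 or more control peaks were used. The other chromosomes are the remaining autosomes and the X chromosome. Intervals are exact binomial (Clopper-Pearson) 95% intervals, divided by the expected share for ratios, and cover counting error only. Python 3.11.15, NumPy 2.4.6, SciPy 1.17.1 and matplotlib 3.10.9 were used, and the overlap and interval functions were tested on simulated lists.

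The regions, 13 gene lists (209 entries, 1 without a match in the gene table) and the tests were chosen with earlier results of these data known. On each chromosome the named genes are the 3 strongest control gene ends with a peak in all lists; the 5 strongest with none in either clone; the 3 strongest with none in clone 1 alone and in clone 2 alone; up to 5 gained in both clones; the 5 with most control peaks absent in both clones; the gene with most control peaks in the highest and lowest window of each clone; and list members. Promoter sequences are printed for a selection of these in which the peak lay over the window, with LCP1 as a contrast. Alternatives were 50% overlap, peaks above the median score, lists of equal length, other strata for the expectation, other gene-end distances and 10 Mb windows. Some genes that the rule takes are not reported here.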

Additional observations from a re-analysis of the deposited data

Results flagged for a closer look

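On chromosome 13 the ratio of control peaks found to those expected from score was 0.931 in clone 1 and 1.02 in clone 2, so the clones lay on opposite sides of 1. The clone 2 interval, 0.966 to 1.07, holds 1, and that ratio was 0.989, 0.998 and 0.994 under 3 alternatives, so the side of 1 in clone 2 is not firm. On chromosome 18 the number of clone peaks absent in control, over the number expected from their own score deciles, was 0.809 in clone 1 and 1.33 in clone 2, again on opposite sides of 1. Each clone is 1 merged list, clone 2 is of another batch, and neither difference was tested.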

How the results depend on the processing

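No paired analysis was possible because the replicates are merged into 1 list a group, and for the same reason leaving out a replicate was not possible. The shares moved with the processing. With at least 50% of the peak overlapped, 61.5% of control peaks on chromosomes 13 and 18 were absent in clone 1, 82.9% in clone 2 and 56.3% in both, the chromosome 18 ratio in clone 2 was 1.30, and 28.1% of clone 1 peaks were absent in control; clone 2 peaks are narrow. Among peaks above the median score the values were 33.4%, 24.97% and 18.1% absent, 1.09 for the chromosome 18 ratio in clone 2, and 7.91% of clone 1 and 4.95% of clone 2 peaks absent in control. With lists cut to the 34572 strongest peaks they were 38.7%, 27.1% and 20.5%, 1.08, and 34.3% and 27.0%. Among control peaks scored with more than 5 decimals, an alternative added after seeing the data, 35.9%, 26.5% and 17.96% were absent. With control gene-end peaks above the median score, 25 of 362 genes had none in clone 1, 35 in clone 2 and 12 in both. The rank correlation of the clone 1 window ratio with gene number was 0.14 in 10 Mb windows, against -0.02 in 5 Mb windows, and the cause was not tested. The chromosome 13 ratio in clone 2 was below 1 with peaks above the median (0.989), lists of equal length (0.998) and gene number of the window (0.994). The gene-number, gene-end position and 5′-end alternatives were also added after seeing the data. The chromosome 18 ratio in clone 1 was below 1 with peaks above the median (0.985), lists of equal length (0.991) and scores of more than 5 decimals (0.978). The clone 2 rank correlation was -0.42 in 10 Mb windows. Of the alternatives not named here, none moved a share or ratio outside its interval or a count by over 1.5 times. Read depth is not known, so a region absent from a list was not called there and may still be accessible.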
